A study of Mus musculus with 25 samples.

Results

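The 9 genes described here are the Hedgehog receptor gene Ptch1, the signal transducer gene Smo, the ligand-binding inhibitor gene Hhip, the co-receptor genes Gas1, Cdon and Boc, and the transcription factor genes Gli1, Gli2 and Gli3. They were chosen by name, as the rows of a table of 35880 mouse genes whose Ensembl identifiers map to these symbols, and each symbol matched 1 row. RNA sequencing had been performed on 25 samples of embryonic C57Bl/6JOlaHsd mouse mesenchyme, 5 from each of 5 tissues. The tissues were ventral skin mesenchyme taken at a distance from the mammary rudiments (E13.5 VM, below VM), salivary mesenchyme (E13.5 SM, below SM) and mammary mesenchyme (E13.5 MM), all of stage E13.5, that is days of embryonic development, and, of stage E16.5, the precursor of the mammary fat pad (E16.5 FP, below FP) and mammary mesenchyme (E16.5 MM). The salivary tissue came from the submandibular gland. The labels give no engineered allele and no treatment, the E16.5 samples are labelled female, and no sex is given for the E13.5 samples. Mesenchyme was separated from epithelium with Dispase II and pancreatin-trypsin followed by microdissection. Each sample pooled tissue from 2 or 3 embryos of 1 litter, and with 3 litters behind the 5 pools of each tissue, several pools were of the same litter. The labels do not say which pools these were, so litter could not enter the fit, and p-values therefore measure the spread between pools that are not all independent.

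In Hedgehog signalling, a secreted ligand (Shh, Ihh or Dhh) binds Ptch1 and thereby lifts the inhibition that Ptch1 exerts on Smo in the primary cilium. Gas1, Cdon and Boc bind the ligand at the cell surface together with Ptch1, whereas Hhip captures it and limits the response. Active Smo keeps the Gli proteins from being processed into repressors: Gli2 acts mainly as an activator, Gli3 mainly as a repressor in the absence of ligand, and Gli1 as an activator that is itself induced. Ptch1, Gli1 and Hhip are transcribed in response to the signal in many tissues and are commonly read as its output. In the embryo, epithelia of skin appendages and of the salivary gland are known sources of Shh, and Gli3 is known to be required for the formation of some mammary buds. A count of Gli2 or Gli3 mRNA does not report how the protein is processed.

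Sequencing depth and tissue identity bear on every value below. Library totals ranged from 20678150 to 34448304 assigned counts (median 26370369). Values called normalized counts are counts scaled to the mean library size after correction for composition. All 6 mesenchymal marker genes were detected in every library, with a summed level of 11563 to 44243 CPM (counts scaled to a fixed library total). These 6 did not share one order over the tissues. Col1a1, Col1a2 and Col3a1 were highest in E16.5 MM and Vim in FP (54813 ± 4066 normalized counts). Pdgfra was lowest in FP, at 9180 ± 614 against 21116 ± 3779 to 29450 ± 3467 elsewhere. Twist2 was at 541 ± 119 in FP and 358 ± 36.1 in SM, against 3514 ± 368 to 6861 ± 710 in the other tissues. The 8 epithelial marker genes summed to 2.30 to 106 CPM, with the highest values in E16.5 MM (11.6 to 106 CPM). Of these genes, Epcam was highest in SM, at 456 ± 80.4 normalized counts against 146 ± 139 in E16.5 MM. The others had their highest mean in E16.5 MM. The 7 skeletal muscle genes summed to 10608 to 18257 CPM in FP replicates 1 to 4 and to 1850 CPM in replicate 5, against 746 to 3031 CPM in E16.5 MM and 108 to 645 CPM in the E13.5 tissues. The 6 neuronal genes summed to 259 to 320 CPM in SM and to at most 20.6 CPM elsewhere, and the 5 adipocyte genes to 670 to 1405 CPM in FP and at most 189 CPM elsewhere; Adipoq was at 0 in SM. In such bulk tissue, fewer cells of a type and less RNA per cell cannot be told apart.

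Each pair of tissues was compared for each gene with edgeR's quasi-likelihood test, adjusted by the Benjamini-Hochberg method over 17657 genes. A difference is called where the adjusted p was under 0.05, the log2 fold change was at least 0.58 in size and the mean normalized count exceeded 50 in the higher tissue. All 9 genes passed the filter on low counts, and 44 of the 90 gene and tissue pairs were called. Per comparison, 6.45% to 39.5% of all tested genes were called. The 10 comparisons share tissues and are not independent of each other. FP had the lowest mean for 6 of the 9 genes (Smo, Gli2, Gli3, Boc, Cdon and Gas1). Against VM, 7 of 9 genes were called (27.4% of all tested genes in either direction), and all 7 were lower in FP (12.4% of tested genes). Against E13.5 MM, 5 of 9 were called (25.5%), all lower in FP (11.2%), and against E16.5 MM likewise 5 (14.1%), all lower (7.34%, with 6.78% of tested genes higher). Markers of skeletal muscle (1850 to 18257 CPM) and of adipocytes (670 to 1405 CPM) were high in FP. Muscle overlapped there with E16.5 MM only through replicate 5. The mesenchymal marker Pdgfra was lowest in FP (9180 ± 614 normalized counts, against 21116 ± 3779 in E16.5 MM), whereas Vim was highest there. The part of such differences in cell make-up in these counts was not tested. Without FP replicate 2, the count against E13.5 MM was 7. The median log2 fold change of the 9 genes in FP was -0.99 against VM, -0.67 against E13.5 MM and -0.75 against E16.5 MM, where the medians of all tested genes were 0.04, 0.03 and 0.00. The 5 samples of FP did not overlap with those of VM for 7 of the 9 genes (39.2% of tested genes), with E13.5 MM for 5 (38.3%) and with E16.5 MM for 5 (22.5%).

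Mammary and ventral skin mesenchyme at the earlier stage had the fewest calls of the 10 pairs across the genome, 6.45% of tested genes. Of the 9 genes, 5 were called between them, and 5 did not overlap between the samples (14.3%). Gli1 was higher in E13.5 MM (3.79% of tested genes were), and Hhip, Gli3, Gas1 and Gli2 were lower (2.66%). This count was 3 without E13.5 MM replicate 1 and 3 without replicate 4, when the calls of Gli1 and Gli2 were lost. Over the mammary stages, 2 of 9 genes were called (19.8%), with Hhip higher (12.6%) and Cdon lower (7.16%) at E16.5, and 4 did not overlap (36.3%). Between E16.5 MM and VM, 4 genes were called (23.3%), with Gli1 higher (13.7%) and Gli3, Gas1 and Cdon lower (9.55%) in E16.5 MM, and 6 did not overlap (39%).

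In SM, 3 genes were called against E13.5 MM (30.1%), with Gli3 higher (15.6%) and Gli1 and Boc lower (14.5%), and 5 did not overlap (46.7%). Against E16.5 MM there were also 3 calls (35.1%), Gli3 higher (16.6%) and Gli1 and Hhip lower (18.5%), and 5 genes did not overlap (51.5%). Against VM, 5 genes were called (30.2%), with Gli3 higher (15.6%) and Hhip, Gas1, Gli1 and Gli2 lower (14.7%), and 4 did not overlap (43.7%). Against FP, 5 were called (39.5%), with Gli3, Cdon and Gas1 higher (19.3%) and Gli1 and Hhip lower (20.2%), and 5 did not overlap (52.1%). Scaled by library totals alone, this last split was 5 higher and 1 lower, while the median of all genes moved from -0.03 to 0.09. The share of the 9 genes called in the SM comparisons, 33.3% to 55.6%, thus stood beside backgrounds of 30.1% to 39.5%.

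**Figure D1:**
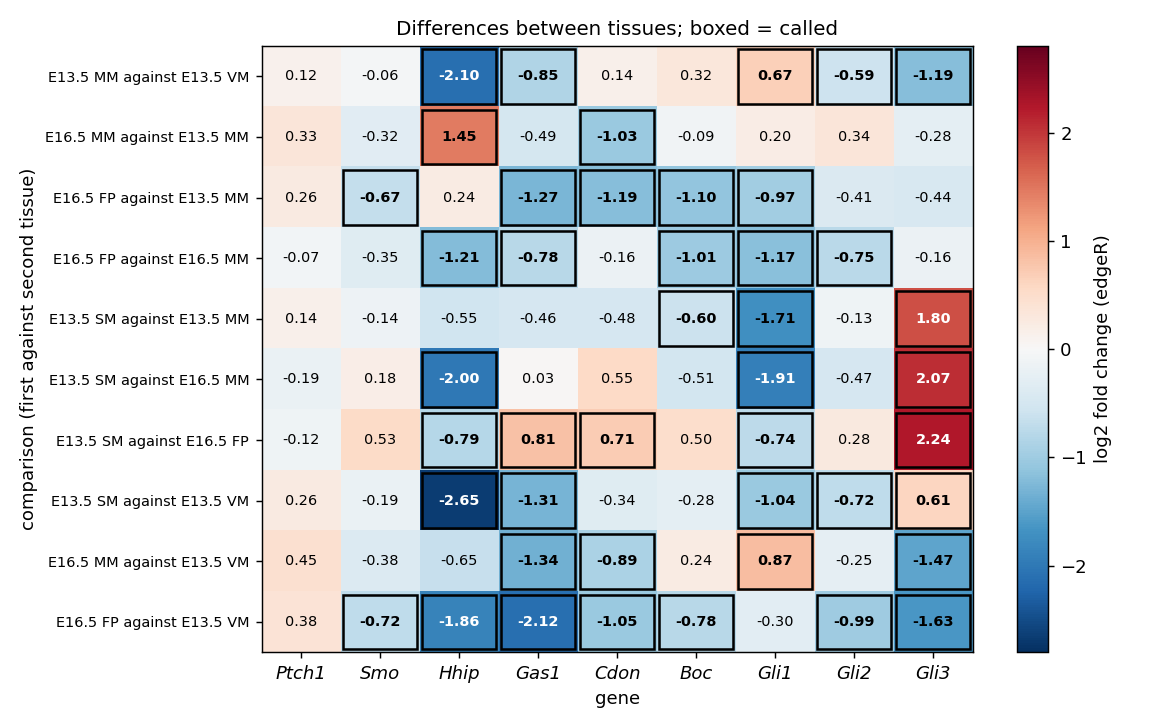
Log2 fold change (colour and number) of each gene (columns) in each of the 10 comparisons (rows, first tissue against second), from edgeR over 25 samples; boxes mark called differences. The column of Ptch1 holds no box, the column of Gli1 holds 8, and the row of FP against VM holds 7, all negative. Of all tested genes, 41.6% were called in none of the 10 comparisons and 6.26% in 8 or more.

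Ptch1 (ENSMUSG00000021466, GRCm38 chr13:63508328-63573598, minus strand), which encodes the ligand receptor, had the smallest ratio of highest to lowest tissue mean of the 9 genes (1.36), although within tissues it varied more than Smo, with a coefficient of variation of 6.35% to 29.9% against 4.41% to 8.61%. Its normalized counts in replicates 1 to 5 were 651, 390, 382, 751 and 534 in VM, 658, 622, 533, 573 and 552 in E13.5 MM, and 804, 484, 625, 644 and 677 in SM. At E16.5 they were 616, 613, 664, 911 and 887 in MM and 755, 744, 676, 653 and 683 in FP. The samples of every pair of tissues overlapped. Means ranged from 542 ± 162 (SD, n = 5) in VM to 738 ± 149 in E16.5 MM, a 1.36-fold difference (log2 0.45 ± 0.16 SE, edgeR adjusted p = 0.0212) that was below the size required for a call. Without VM replicate 4 the same difference was 0.59 (adjusted p = 0.00248) and would have been called. None of the 10 comparisons was called in edgeR, where 3 had an unadjusted p under 0.05, or in DESeq2, and FP against VM was the only other with an adjusted p under 0.05 (log2 0.38 ± 0.16 SE, adjusted p = 0.0498). Among all tested genes, 41.6% were called in none of the 10 comparisons. No neighbours in the order E16.5 MM, FP, SM, E13.5 MM and VM differed beyond their spread.

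Smo (ENSMUSG00000001761, chr6:29735503-29761365, plus strand), whose protein carries the signal across the membrane, was highest in VM (5312 ± 418) and E13.5 MM (5111 ± 268), followed by SM (4649 ± 296), E16.5 MM (4092 ± 352) and FP (3221 ± 142; SD, n = 5 each). The 5 FP samples, at 2983, 3240, 3289, 3235 and 3358, were below all 20 others, the lowest of which was an E16.5 MM sample at 3780. Smo was lower in FP than in VM (log2 -0.72 ± 0.07 SE, edgeR adjusted p = 7.68e-10) and E13.5 MM (-0.67 ± 0.07, adjusted p = 4.13e-09). The other 8 comparisons were not called, although 6 of them had an adjusted p under 0.05, and SM against FP (log2 0.53) was called with library totals (0.66) or without a filter on low counts (0.59). The top 3 tissues were not separated step by step: VM and MM at E13.5 differed by 0.06 ± 0.07 and MM and SM by 0.14 ± 0.07 (adjusted p = 0.670 and 0.0740).

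Hhip (ENSMUSG00000064325, chr8:79965851-80058006, minus strand), which encodes the Hedgehog interacting protein, varied most, with a 6.28-fold ratio of the highest to the lowest mean. In VM its normalized counts were 703, 571, 643, 928 and 701, and in E16.5 MM they were 456, 400, 474, 367 and 564. In the other tissues they were 112, 178, 164, 230 and 141 in E13.5 MM, 356, 228, 156, 166 and 72.9 in FP, and 202, 97.6, 89.4, 99.8 and 76.5 in SM. All VM samples lay above all other samples, all E16.5 MM samples lay above the samples of the remaining 3 tissues, and those 3 overlapped. Hhip was 4.28-fold lower in E13.5 MM than in VM (log2 -2.1 ± 0.30 SE, edgeR adjusted p = 1.72e-05). Within mammary mesenchyme it rose 2.73-fold from E13.5 to E16.5 (log2 1.45 ± 0.30, adjusted p = 3.20e-04). E16.5 MM and VM differed by -0.65 ± 0.29 (adjusted p = 0.0614), which was not called although the samples did not overlap; with only the 2 tissues in the fit it was -0.61 (adjusted p = 0.00178) and called. At E16.5 the fat pad held 2.31-fold less than the mammary mesenchyme (log2 -1.21 ± 0.30, adjusted p = 0.00245).

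SM had the lowest mean of Hhip (113 ± 50.4), 6.26-fold below VM (log2 -2.65 ± 0.31 SE, edgeR adjusted p = 9.93e-08). It was also lower than E16.5 MM (log2 -2.0 ± 0.31, adjusted p = 4.64e-06), whereas against E13.5 MM the difference was -0.55 ± 0.30 (adjusted p = 0.123), and without SM replicate 1, the highest of its group, -0.86 (adjusted p = 0.0151). The call of a lower Hhip in SM than in FP (log2 -0.79 ± 0.30, adjusted p = 0.0243) was lost in several alternatives. Without SM replicate 2 (-0.75), 3 (-0.73), 4 (-0.74) or 5 (-0.69), or FP replicate 2 (-0.74), the size changed little. The adjusted p was then between 0.0521 and 0.0653. Without FP replicate 1 the difference was smaller (-0.46, adjusted p = 0.152). The call was also lost with library totals (-0.65), without a filter on low counts (-0.75) and with only the 2 tissues in the fit (-0.83).

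Gas1 (ENSMUSG00000052957, chr13:60174405-60177365, minus strand) encodes a membrane-anchored co-receptor and was highest in VM and lowest in FP. Normalized counts in VM were 11114, 10794, 9708, 9299 and 8723, and in E13.5 MM 5294, 4699, 5795, 5827 and 5886. They were 3856, 4409, 3741, 3873 and 4152 in SM, 1935, 2472, 2221, 2210 and 2578 in FP, and 3596, 4001, 4333, 3681 and 3950 in E16.5 MM. Only SM and E16.5 MM overlapped, and for that pair the log2 fold change was 0.03 ± 0.08 SE (edgeR adjusted p = 0.728). VM held 1.8-fold more than E13.5 MM (log2 0.85 ± 0.08, adjusted p = 3.40e-08) and 4.35-fold more than FP (log2 2.12 ± 0.09, adjusted p = 1.90e-16). The difference between E16.5 MM and E13.5 MM (log2 -0.49 ± 0.08, adjusted p = 2.85e-05) was below the size required for a call. An annotated antisense transcript, Gm48488, shares 589 exon bases with Gas1 and 18.2% of its 31-base sequences. It has no row among the counted genes, and without strand information its reads cannot be told apart from those of Gas1.

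Cdon (ENSMUSG00000038119, chr9:35421128-35507652, plus strand) and Boc (ENSMUSG00000022687, chr16:44485049-44558897, minus strand) encode related immunoglobulin-superfamily co-receptors. Cdon was highest in E13.5 MM (13308 ± 487) and VM (12040 ± 1045; SD, n = 5), which did not differ beyond their spread (log2 0.14 ± 0.08 SE, edgeR adjusted p = 0.245). It was at 9521 ± 495 in SM, and at 6519 ± 314 and 5834 ± 847 in the E16.5 tissues MM and FP. All 15 E13.5 samples, with 8711 as the lowest, exceeded all 10 E16.5 samples, with 6949 as the highest. Between the mammary stages, Cdon fell 2.04-fold (log2 -1.03 ± 0.08, adjusted p = 1.05e-10), and FP did not differ from E16.5 MM beyond the spread (log2 -0.16 ± 0.08, adjusted p = 0.122). SM against E16.5 MM (log2 0.55 ± 0.08) was below the size of a call and passed it with library totals (0.64) or without a filter on low counts (0.59).

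For Boc, the difference between the mammary stages was within the spread. Its normalized counts were 2905, 2971, 2509, 2602 and 2441 in E13.5 MM and 2578, 2456, 2483, 2423 and 2680 in E16.5 MM, and the log2 fold change between these stages was -0.09 ± 0.09 SE (edgeR adjusted p = 0.399). In FP the counts were 1151, 1646, 1142, 1149 and 1155, lower than in E16.5 MM (log2 -1.01 ± 0.09, adjusted p = 1.08e-09), E13.5 MM (-1.10 ± 0.09, adjusted p = 6.30e-11) and VM (-0.78 ± 0.09, adjusted p = 2.48e-08). VM (2144 ± 179) and SM (1768 ± 74.6) lay between. Boc was lower in SM than in E13.5 MM by an amount close to the required size (log2 -0.60 ± 0.09, adjusted p = 1.29e-06), and the call was lost without E13.5 MM replicate 1 (-0.58) or replicate 2 (-0.57), or with library totals (-0.53). The difference of 0.50 ± 0.09 between SM and FP would have been called without FP replicate 2 (0.62) or with library totals (0.63). Boc and Cdon transcripts share a single 31-base sequence, so few reads could fall to the wrong one of this pair.

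**Figure D2:**
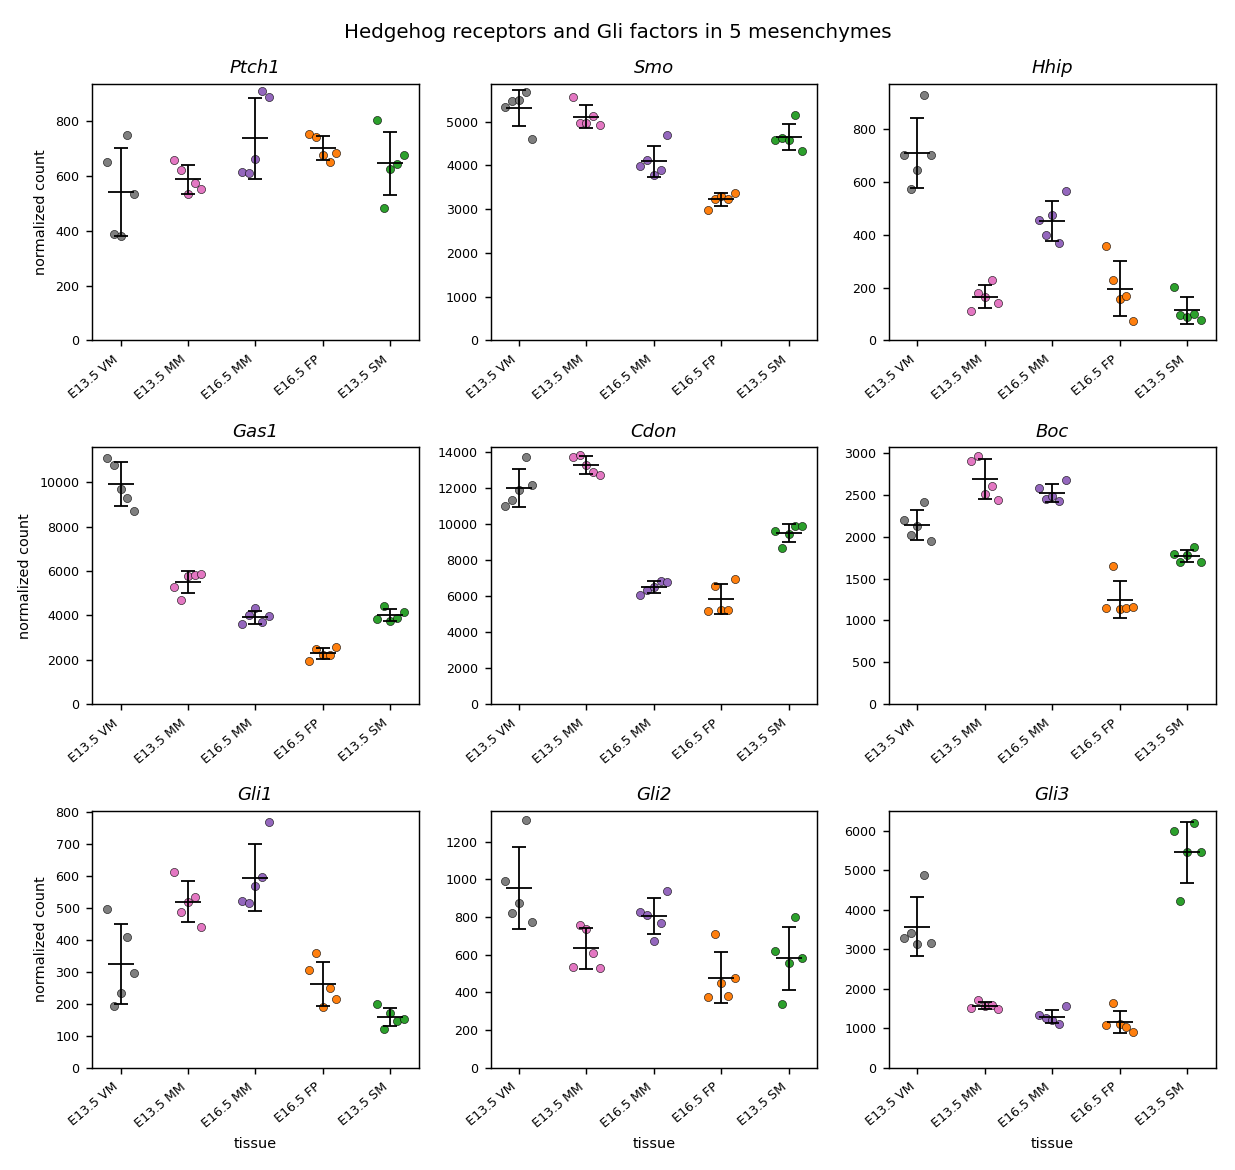
Normalized counts of the 9 genes (one panel each, y axis from 0) in the 5 tissues; points are the 5 samples of a tissue in the order of their replicate numbers, and bars show the mean and SD. The points of Ptch1 overlap between all tissues, those of Hhip are highest in VM, and those of Gli3 are highest in SM.

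The 3 Gli genes encode zinc-finger transcription factors of one family, so that assignment of reads between them matters for their counts. To show how far they can be told apart, a stretch of 90 coding bases is given for the longest transcript of each (GENCODE M21 sequences), starting where Gli2 and Gli3 share their longest identical run; capitals mark bases that differ from Gli2.
Gli2: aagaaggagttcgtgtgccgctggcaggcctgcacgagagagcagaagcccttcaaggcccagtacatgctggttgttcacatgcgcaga
Gli3: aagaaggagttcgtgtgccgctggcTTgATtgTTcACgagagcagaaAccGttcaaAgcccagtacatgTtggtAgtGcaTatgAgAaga
Gli1: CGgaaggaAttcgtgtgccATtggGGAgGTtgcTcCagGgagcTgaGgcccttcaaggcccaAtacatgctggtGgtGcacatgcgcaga
Over this stretch Gli3 is identical to Gli2 at 73 positions (81.1%) and Gli1 at 72 (80%). The longest identical run is 25 bases between Gli2 and Gli3, 23 between Gli1 and Gli2 and 14 between Gli1 and Gli3, and no 31-base sequence is shared between any of the 3 genes. Gli2 shares none with any other annotated gene. Gli1 shares 5.3% of its 31-base sequences with the antisense transcript Gm47200 and with Arhgap9 on the opposite strand (at most 190 counts in a sample), and Gli3 shares 1.53%, nearly all with the antisense transcript Gm6556. Hhip shares 1.6% with Gm27820, also on the opposite strand, and Smo 3.11%, mostly with Gm4066. Reads from these antisense transcripts cannot be told apart without strand information.

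Gli1 (ENSMUSG00000025407, chr10:127329882-127341974, minus strand), the inducible activator, was high in mammary mesenchyme at both stages. Its normalized counts were 612, 487, 518, 534 and 439 in E13.5 MM and 521, 515, 567, 597 and 769 in E16.5 MM. They were 495, 192, 234, 409 and 297 in VM, 306, 358, 189, 248 and 214 in FP, and 198, 122, 172, 147 and 152 in SM. All mammary samples at both stages lay above all fat pad and salivary samples, whereas the ventral skin samples spread from the fat pad range into the mammary range. Gli1 was 3.27-fold higher in E13.5 MM than in SM (log2 1.71 ± 0.21 SE, edgeR adjusted p = 1.85e-07), and 3.75-fold higher in E16.5 MM than in SM (log2 1.91 ± 0.21, adjusted p = 2.84e-08). It was 2.25-fold higher in E16.5 MM than in FP (log2 1.17 ± 0.21, adjusted p = 8.06e-05). The mammary stages did not differ beyond their spread (log2 0.20 ± 0.20, adjusted p = 0.431), nor did VM and FP (log2 0.30 ± 0.21, adjusted p = 0.223). SM, the lowest tissue, was below FP by 0.74 ± 0.21 (adjusted p = 0.00347) and below VM by 1.04 ± 0.21 (adjusted p = 1.53e-04), with overlapping samples in both pairs.

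Against ventral skin, Gli1 was 1.83-fold higher in E16.5 MM (log2 0.87 ± 0.21 SE, edgeR adjusted p = 9.59e-04) and 1.59-fold higher in E13.5 MM (log2 0.67 ± 0.20, adjusted p = 0.0251). The E13.5 difference kept its direction in all alternatives, at log2 0.53 to 0.88, but not always its call. It was not called without E13.5 MM replicate 1 (log2 0.61) or 4 (0.66), without VM replicate 2 (0.53), 3 (0.57) or 5 (0.65), with adjusted p between 0.0521 and 0.0806, with only the tissues compared in the fit (adjusted p = 0.0723), or without a filter on low counts (adjusted p = 0.055).

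Gli2 (ENSMUSG00000048402, chr1:118834132-119053619, minus strand), the main activator, was highest in VM (991, 819, 875, 1313 and 772) and lowest in FP (375, 709, 452, 381 and 475). These 2 groups did not overlap, and the log2 fold change was -0.99 ± 0.19 SE (edgeR adjusted p = 1.16e-04). E16.5 MM (804 ± 95.4) exceeded FP (479 ± 136) by 0.75 ± 0.19 on the log2 scale (adjusted p = 0.00380), with overlap from FP replicate 2. No neighbours in the order VM, E16.5 MM, E13.5 MM (634 ± 109), SM (580 ± 165) and FP differed beyond their spread. The lower Gli2 in E13.5 MM than in VM (log2 -0.59 ± 0.19, adjusted p = 0.0372) was at the limit of a call. It was not called without E13.5 MM replicate 1 (-0.52), 4 (-0.57) or 5 (-0.52), or without VM replicate 1 (-0.56) or 4 (-0.45), with adjusted p between 0.0817 and 0.147. Nor was it called with library totals (-0.56, adjusted p = 0.0574) or without a filter on low counts (-0.57, adjusted p = 0.121). The lower Gli2 in SM than in VM (log2 -0.72 ± 0.19, adjusted p = 0.00245) was not called without VM replicate 4 (-0.57) or SM replicate 2 (-0.56). Conversely, 2 differences that were not called passed when 1 library was left out: FP against E13.5 MM without FP replicate 2 (-0.60), and SM against E16.5 MM without SM replicate 4 (-0.61).

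Gli3 (ENSMUSG00000021318, chr13:15463235-15730026, plus strand), the main repressor, was highest in salivary mesenchyme. Its normalized counts in SM were 5984, 4208, 5448, 6183 and 5447, and in VM 3280, 3400, 3142, 4881 and 3164. They were 1508, 1713, 1552, 1598 and 1481 in E13.5 MM, 1083, 1632, 1099, 1046 and 914 in FP, and 1327, 1272, 1209, 1109 and 1554 in E16.5 MM. All SM and VM samples lay above all samples of the other 3 tissues, which overlapped among themselves. Gli3 was 3.47-fold higher in SM than in E13.5 MM (log2 1.8 ± 0.14 SE, edgeR adjusted p = 5.83e-11) and 4.72-fold higher than in FP (log2 2.24 ± 0.14, adjusted p = 7.75e-13). E13.5 MM held 2.28-fold less than VM (log2 -1.19 ± 0.14, adjusted p = 6.63e-07). Between E13.5 MM and E16.5 MM the difference was -0.28 ± 0.14 (adjusted p = 0.0966), and between E16.5 MM and FP -0.16 ± 0.14 (adjusted p = 0.411), both within the spread. SM exceeded VM by 0.61 ± 0.14 (adjusted p = 4.24e-04), close to the size required. That call was lost without VM replicate 3 (0.57) or SM replicate 1 (0.58) or 4 (0.56), and the samples overlapped through VM replicate 4. The difference of -0.44 between FP and E13.5 MM would have been called without FP replicate 2 (-0.60). Neuronal markers, which summed to 259 to 320 CPM in SM, were high in the same tissue as Gli3, and their part in this result was not tested.

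Because lengths differ, levels were compared between genes only as CPM per kilobase of exon. On that scale Gas1, Cdon and Smo held the top 3 ranks in every tissue, with 126, 58.9 and 35.7 CPM per kilobase in VM and 29.1, 28.5 and 21.6 in FP. Boc came next in 4 tissues, with 10.6 to 22.8 CPM per kilobase. In SM this place was taken by Gli3 at 21.5, ahead of Boc at 15.0. Ptch1 (1.44 to 1.96) and Hhip (0.470 to 2.95) were among the 3 lowest in each tissue. The order within the top 3 depended on the length used. With the longest transcript as length, Smo (32.2) came before Cdon (29.3) and Gas1 (29.1) in FP. In E16.5 MM, Smo (40.9) then came before Cdon (32.8).

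Within the Gli family, Gli3 made up 83.2% ± 1.5 (SD, n = 5) of the summed level per kilobase in SM, and Gli1 4.65% ± 0.595. In VM the shares were 64.8% ± 3.92 for Gli3, 24.0% ± 1.18 for Gli2 and 11.2% ± 3.58 for Gli1. In E13.5 MM they were 45.6% ± 2.00, 25.6% ± 3.03 and 28.9% ± 3.37, and in E16.5 MM 36.4% ± 1.93, 31.6% ± 1.94 and 32.0% ± 2.81, so the 3 genes were at nearly equal levels there. FP (49.6% ± 2.42, 28.6% ± 3.76 and 21.8% ± 3.50) lay between E13.5 MM and VM in its share of Gli3. The ratio of Gli2 to Gli3 per kilobase, which does not depend on how libraries are scaled, ranged from 0.112 to 0.181 in the 5 SM samples, 0.336 to 0.422 in VM, 0.497 to 0.664 in E13.5 MM, 0.483 to 0.725 in FP and 0.778 to 0.970 in E16.5 MM. The samples of SM, VM and E16.5 MM did not overlap with those of any other tissue in this ratio, and those of E13.5 MM and FP overlapped with each other. No test was run on shares or ratios.

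**Figure D3:**
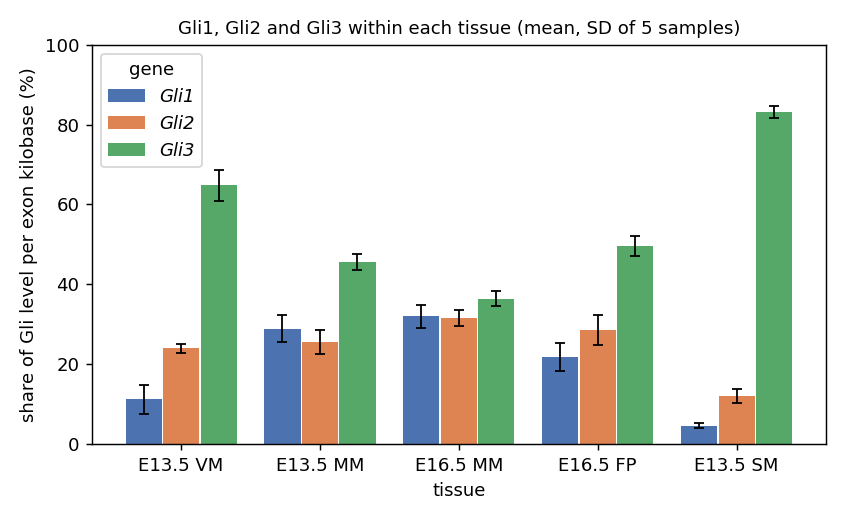
Share of each Gli gene (y axis, percent) in the summed Gli level per exon kilobase of the same sample, by tissue (x axis); bars are means and error bars SDs of 5 samples. The bar of Gli3 is 83.2% in SM and 36.4% in E16.5 MM, where the 3 bars are close.

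The 3 genes commonly read as pathway output did not follow one order over the tissues. From highest to lowest, Ptch1 ran E16.5 MM, FP, SM, E13.5 MM and VM, although without separation. Gli1 ran E16.5 MM, E13.5 MM, VM, FP and SM, and Hhip ran VM, E16.5 MM, FP, E13.5 MM and SM. Per kilobase, the ratio of Gli1 to Hhip within a sample was 0.611 to 1.28 in VM and 4.21 to 9.95 in E13.5 MM, with 1.56 to 5.35 in the other 3 tissues. The ratio of Gli1 to Ptch1 was 2.22 to 2.76 in E13.5 MM, 1.86 to 2.46 in E16.5 MM, 1.4 to 2.16 in VM, 0.794 to 1.37 in FP and 0.637 to 0.782 in SM. Between VM and E13.5 MM, Hhip and Gli1 were called in opposite directions, Hhip down (log2 -2.1) and Gli1 up (log2 0.67), and Ptch1 showed 0.12 ± 0.16 SE (edgeR adjusted p = 0.727). The call of Gli1 was lost in 7 of 17 alternatives and its samples overlapped, whereas the call of Hhip was kept in all of them.

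The genes most like Gli1 were found by the root mean square (RMS) difference of log2 CPM, centred on the mean of each gene, over 25 samples and among 13921 genes with a mean normalized count over 50. They were Arhgef26 (RMS 0.40), Adam33, Adgrg6, Sdc4 and Disp1 (0.41 each). Disp1 encodes the membrane protein that releases the lipid-modified ligand from the cells that make it. Of the other 8 genes described here, Boc came closest at rank 199 (RMS 0.56), whereas Ptch1 was at rank 2119 (0.72), Hhip at rank 10573 (1.0) and Gli3 at rank 12887 (1.47). The genes most like Hhip were Ptprv (0.55), Inpp4b and Fosl2 (0.62 each), Atxn1 (0.64) and Kremen1 (0.65), with Gli2 at rank 141 (0.86). For Ptch1 they were Hdlbp (0.23), Colgalt1 and Tob2 (0.24 each), Rap1gds1 and Ncstn (0.25 each), and Gli1 was at rank 10858. Because values were centred but not scaled, a distance also grows with how much each gene varies. The ratio of highest to lowest tissue mean was 1.36 for Ptch1 and 3.75 for Gli1. Their rank can therefore not show whether their order over the tissues is unlike. These distances describe 25 libraries of 5 tissues and were not tested.

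Transcripts of the ligands themselves were scarce. Shh summed to 17, 16, 44, 21 and 7 raw counts over the 5 libraries of VM, E13.5 MM, E16.5 MM, FP and SM, and Ihh to 11, 11, 14, 27 and 11 in the same order, and both were below the filter on low counts. Epithelial markers were as a sum also highest in E16.5 MM (11.6 to 106 CPM), although Epcam was highest in SM. The part of epithelium in the Shh counts was not tested. Dhh, a ligand known to be made by Schwann cells and endothelium, was at 170, 119, 144, 154 and 98.2 normalized counts in FP and at 42.4, 53.9, 63.6, 125 and 20.1 in E16.5 MM. In the E13.5 tissues it stayed between 9.6 and 32.5. Dhh was higher in FP than in E16.5 MM (log2 1.17 ± 0.31 SE, edgeR adjusted p = 0.00400), with overlapping samples, and than in E13.5 MM (log2 2.35 ± 0.32, adjusted p = 9.21e-07). Summed endothelial markers were 795 to 1000 CPM in FP, 602 to 760 in E16.5 MM and 319 to 588 in the E13.5 tissues, whereas Schwann cell markers (50.8 to 109 CPM) were not highest in FP. Their part in the Dhh difference was not tested.

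Of the 8 listed ligand genes and genes of ligand release, the 6 that were tested (all but Shh and Ihh) were called in 4 or more comparisons, as were 36.8% of all tested genes. The Scube genes encode secreted proteins that help to release the ligand. Scube1 averaged 7903 ± 1398 normalized counts in SM, 1373 ± 257 in E13.5 MM, 1080 ± 154 in VM, 292 ± 54.7 in E16.5 MM and 149 ± 59.0 in FP (SD, n = 5). Its log2 fold change of SM against E13.5 MM was 2.53 ± 0.20 SE (edgeR adjusted p = 2.22e-10). Scube2 ran the other way, at 11.9 ± 4.53 in SM, 525 ± 70.5 in E13.5 MM and 1197 ± 180 in VM (log2 -5.45 ± 0.28 for SM against E13.5 MM, adjusted p = 4.38e-14). Scube2 was also lower in E13.5 MM than in VM (log2 -1.19 ± 0.21, adjusted p = 1.63e-04), the only call of this list in that comparison. Scube3 was at 3266 ± 321 in E13.5 MM and 2986 ± 302 in VM, and fell to 751 ± 154 in E16.5 MM (log2 -2.12 ± 0.14 against E13.5 MM, adjusted p = 7.10e-12), with 327 ± 71.1 in FP. In FP all 6 tested genes of the list were called against both E13.5 MM and VM, 4 lower and 2 higher, beside 25.5% and 27.4% of all tested genes.

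**Figure D4:**
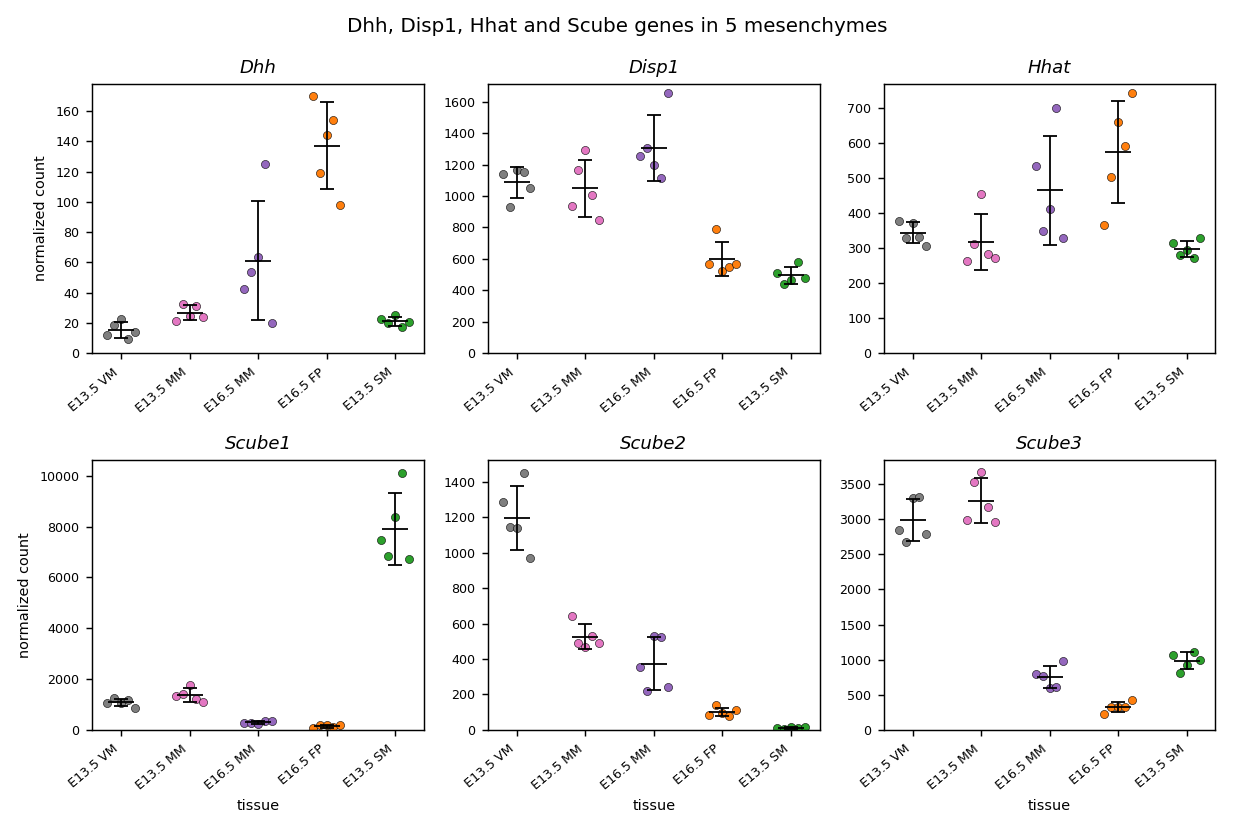
Normalized counts (y axis from 0) of Dhh, of Hhat, which adds palmitate to the ligands, and of Disp1 and the Scube genes of ligand release in the 5 tissues; points are samples, bars mean and SD (n = 5). Scube1 is highest in SM, Scube2 in VM, and Dhh in FP.

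Of 22 other receptors and signal transducers, all tested, none was called between E13.5 MM and VM (6.45% of all tested genes). The same held between E16.5 MM and E13.5 MM (19.8% of all tested genes). In edgeR, 5 and 9 of them had an unadjusted p under 0.05 in these comparisons, and DESeq2 called 0 in both. In SM, 6 were called against E13.5 MM, 6 against VM and 7 against E16.5 MM, all higher, and 15 against FP, 12 of them higher. Against E13.5 MM and VM the share was 27.3%, all of it higher, where 15.6% of all tested genes were called higher in SM. In either direction, 30.1% and 30.2% of all tested genes were called. Against E16.5 MM the share was 31.8%, beside 16.6% of all tested genes called higher in SM and 35.1% called in either direction. Against FP the share was 68.2% beside 39.5% in either direction, and 19.3% of all tested genes were called higher in SM. Neuronal markers were high in SM as well, and their part was not tested. Gpr161, a ciliary receptor that restrains the pathway, was at 1509 ± 164 in VM and 424 ± 35.5 in FP (log2 -1.83 ± 0.08 SE, edgeR adjusted p = 1.07e-15). Gpc3, a cell-surface glypican that competes for ligand, reached 20187 ± 939 in SM against 8948 ± 544 in E13.5 MM (log2 1.17 ± 0.17, adjusted p = 2.39e-06). Stk36, a Fused-type kinase, was at 342 ± 46.1 in SM and 122 ± 19.7 in E13.5 MM (log2 1.48 ± 0.16, adjusted p = 2.04e-08). Lrp2, a large endocytic receptor, was at 144 ± 93.6 in FP and at most 32.9 ± 18.2 elsewhere.

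Between E13.5 MM and VM, edgeR called 6.45% of all tested genes. Of 9 listed ciliary transport genes, edgeR and DESeq2 called 0 there, and 2 had an unadjusted p under 0.05 in edgeR. They were higher in SM in 3 of 9 cases against E13.5 MM, 5 against VM, 6 against E16.5 MM and 6 against FP, and none was called lower, where 15.6%, 15.6%, 16.6% and 19.3% of all tested genes were called higher in SM. Against VM, DESeq2 called 4 in place of 5. Tulp3, an adaptor for entry of receptors into the cilium, averaged 2043 ± 545 in SM and 654 ± 27.8 in E13.5 MM (log2 1.64 ± 0.15 SE, edgeR adjusted p = 4.73e-10). The motor gene Dync2h1 (log2 0.99 ± 0.10, adjusted p = 5.89e-09) and the BBSome gene Bbs2 (1.02 ± 0.08, adjusted p = 1.32e-10) were also higher in that comparison. Ift88, of the intraflagellar transport complex, was called against VM (0.58 ± 0.07, adjusted p = 2.11e-07), at the size required and not in DESeq2, and against both E16.5 tissues. The neuronal markers were high in the same tissue, SM, and their part was not tested.

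Of 13 genes listed as Hedgehog targets in one tissue or another, 10 were tested, and in 9 of the 10 comparisons the list had calls in both directions. Between 1 and 6 of the 10 were called per comparison, for example 1 between E13.5 MM and VM (6.45% of all tested genes), 6 between FP and VM (27.4%) and 3 between SM and E13.5 MM (30.1%). Ccnd1, a G1 cyclin, was highest in E13.5 MM (11900 ± 1186), above VM (6608 ± 440, log2 0.85 ± 0.11 SE, edgeR adjusted p = 1.90e-06) and SM (2820 ± 533, log2 fold change of SM against MM -2.08 ± 0.11, adjusted p = 3.02e-14). Bcl2, a survival gene, was highest in SM at 3104 ± 129 (log2 0.73 ± 0.07 against E13.5 MM, adjusted p = 4.06e-09). Mycn, a growth regulator, was at 387 ± 46.7 in VM and 315 ± 27.3 in E13.5 MM and fell to 141 ± 21.3 in E16.5 MM (log2 -1.16 ± 0.19 against E13.5 MM, adjusted p = 1.32e-05). Hsd11b2, a glucocorticoid-inactivating enzyme, rose from 4.85 ± 2.76 to 60.5 ± 17.1 over the same stages (log2 3.61 ± 0.39, adjusted p = 4.49e-08). The forkhead genes Foxf1, Foxl1 and Foxd1 had means of at most 44.9 normalized counts and could not meet the count minimum of a call, and Foxf2, Foxd2 and Nkx3-2 were below the filter on low counts.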

How the data were processed

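RNA from 25 pools of microdissected mesenchyme had been converted to libraries with the Ovation SoLo system. Per the labels and methods, the authors removed adapters in Trimmomatic 0.39, inspected quality using FastQC 0.11.8 plus MultiQC 1.9, removed ribosomal reads by SortMeRNA, and ran Salmon 0.99.0 for mm10. The deposited values are estimated counts per Ensembl gene, all whole numbers in the table (35880 genes, of which 375 without a symbol held 0.081% of counts); the sources used here do not give the strand setting.

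Counts were fitted with edgeR 4.0.16 in R 4.3.3 (TMM factors, filterByExpr, robust quasi-likelihood test, 1 mean per tissue over all 25 samples, 20 residual degrees of freedom, common dispersion 0.0433) with Benjamini-Hochberg adjustment over 17657 genes, and the fit was tested on simulated data. SE is the log2 fold change divided by the root of F. Symbols, lengths (union of exons) and coordinates came from GENCODE M21 (GRCm38). Levels per kilobase are CPM divided by that length. The 9 genes, the pathway lists and the marker lists were chosen with earlier results of these data known. Named genes were the 9 genes, Shh, Ihh and Dhh, per list up to 4 genes called in most comparisons, and the 5 genes most like Gli1, Ptch1 and Hhip; Hhat, Jag2, Sufu and the forkhead genes were named after their values were seen, and 1 gene that the rule names is not reported here. Alternatives were DESeq2 1.42.0, its size factors, library totals, no filter, only the tissues compared, a replicate block, each sample left out in turn, a count minimum over both tissues, and the length of the longest transcript. Total counts limit precision for genes at a few counts per library, such as Shh and Ihh.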

Additional observations from a re-analysis of the deposited data

Results flagged for a closer look

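Of the 45 groups formed by 9 genes in 5 tissues, 4 held a sample whose gap to its nearest neighbour was large relative to the range of the group (Dixon's criterion for 5 samples, 0.71). Chance alone flags about 1 in 20 groups. Gli3 stood at 4881 normalized counts in VM replicate 4, against 3142 to 3400 in the others. Gli3 stood at 1632 in FP replicate 2, against 914 to 1099. Boc stood at 1646 in the same library, FP replicate 2, against 1142 to 1155. Hhip stood at 202 in SM replicate 1, against 76.5 to 99.8. VM replicate 4 had the lowest sum of skeletal muscle markers of its tissue, 176 CPM. FP replicate 2 had the highest such sum, 18257 CPM, and SM replicate 1 the highest of its tissue, 645 CPM. The part of muscle RNA in these values was not tested.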

How the results depend on the processing

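Of the 44 called differences, 38 were called under each of the 17 alternatives tried, 6 were lost in at least 1, and none turned sign; of the 46 that were not called, 10 were called in at least 1. The number of the 9 genes called between E13.5 MM and VM was 5, became 3 without a filter on low counts, and ranged from 3 to 5 with single samples left out. Signs turned only for differences near 0 that were not called. Gas1 in SM against E16.5 MM was -0.01 with DESeq2's size factors and with the DESeq2 Wald test, -0.04 with only the tissues compared, and -0.01 to 0.07 with single samples left out. Ptch1 in SM against FP was 0.01 with library totals. With single samples left out, Hhip in FP against E13.5 MM ranged from -0.09 to 0.47, Ptch1 in FP against E16.5 MM from -0.14 to 0.00, and Gli2 in SM against E13.5 MM from -0.27 to 0.02. The cause was not tested.

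With the replicate block, 1 of 90 calls changed, Gli2 in E13.5 MM against VM (log2 -0.58, adjusted p = 0.064), and the counts stayed within the margin in all 10 comparisons. Replicate numbers did not pair the samples: deviations of same-numbered samples had a median r of -0.0579 over 50 pairs, 17 of them over 0.1. Only 1 of 25 samples correlated best with its own number. Levels per kilobase moved by more than 1 SD in 16 of 45 cases when the longest transcript set the length. Depth limits Shh and Ihh, which had too few counts to test.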

Other observations

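Within a tissue, some samples stood high or low in several of the 9 genes at once. In VM, replicates 1 and 4 held the highest Ptch1 (651 and 751 normalized counts, against 382 to 534 in the others) and the highest Gli1 (495 and 409, against 192 to 297). Epithelial markers summed to 4.22 and 4.72 CPM in these 2 libraries and to 2.30 to 3.61 CPM in the other 3, and muscle markers to 483 and 176 CPM against 349 to 632 CPM. In E16.5 MM, replicates 4 and 5 were highest in Ptch1 (911 and 887, against 613 to 664) and Gli1 (597 and 769, against 515 to 567). Their epithelial markers summed to 55.3 and 87.1 CPM, whereas replicate 1 had the highest sum, 106 CPM, with 616 for Ptch1. In SM, replicate 2 was lowest in Ptch1 (484), Gli1 (122), Gli2 (338) and Gli3 (4208). These values are given for 5 samples a tissue, with no test.

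Further genes of the lists are described here after their values were seen. Hhat, the acyltransferase that adds palmitate to Hedgehog ligands, was at 573 ± 145 (FP) and 464 ± 155 (E16.5 MM) normalized counts, against 297 ± 22.7 to 343 ± 30.6 in the E13.5 tissues (SD, n = 5). Jag2, a Notch ligand, averaged 454 ± 35.3 in E16.5 MM and 417 ± 88.6 in FP, against 223 ± 30.3 to 253 ± 43.1 at E13.5, and was called in 6 comparisons, all between an E16.5 and an E13.5 tissue (for the mammary stages, log2 1.02 ± 0.16 SE, edgeR adjusted p = 9.09e-06). Sufu, which holds Gli proteins in the cytoplasm, was at 1060 ± 223 in SM and 454 ± 111 to 650 ± 151 elsewhere, and was called higher in SM in all 4 comparisons of that tissue. Of all tested genes, 18.5% were called in 6 or more comparisons, as Jag2 was, and 36.8% in 4 or more, as Sufu was.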
